A study of Homo sapiens with 22 samples.

Results

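U-138MG is an established human glioblastoma cell line, and its 2 RNA-seq libraries were set against the 8 libraries of 4 other glioblastoma lines, KNS-42, LN-229, SNU-1105 and U-87MG. These 10 libraries are part of 22 libraries of 11 untreated lines, each grown as a pure culture and sequenced as 2 libraries. U-138MG and U-87MG were kept in EMEM, KNS-42 and LN-229 in DMEM and SNU-1105 in RPMI medium, all with 10% fetal serum, so medium and line cannot be told apart. No line carried an engineered change or received an agent, per the labels. KALS-1, LN-18 and T98G, which stand in the same deposited table of 2221 genes, were left out of the comparison by its rule, and their values are given only beside results. A gene was called higher in U-138MG when both of its libraries lay above all 8 others, the log2 fold change was at least 1 against each of the 4 lines, and the adjusted p was under 0.05. Genes called lower met the same conditions with the signs turned. Separation of the U-138MG pair from all 8 other libraries is therefore a condition of every call and not a further result. The p-value of a gene is the largest of its 4 edgeR quasi-likelihood p-values, one per line, with Benjamini-Hochberg adjustment over the 1714 genes that passed the low-count filter. The level of a gene is given in CPM, its read count divided by the library total and scaled by the same constant in every library, and the fold change printed is that against the nearest line, the one whose level came closest to U-138MG. By these conditions 89 genes were higher in U-138MG (5.19% of the tested genes) and 63 were lower (3.68%), together 152 (8.87%). On rank alone, with no test, both U-138MG libraries lay above all 8 others for 241 genes (14.1%) and below them for 179 (10.4%).

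Glioblastoma lines grown in serum differ in which receptors, matrix proteins and transcription factors they express. Receptor tyrosine kinases such as PDGFRA and ALK bind a growth factor outside the cell and phosphorylate partners inside it, and PDGFRA is one of the receptor genes altered in glioblastoma tumours. Fibronectin, fibrillin and collagens form the matrix on which cells attach through integrins, dimers of an alpha and a beta chain. Homeobox and nuclear receptor proteins bind DNA and set which genes a cell transcribes.

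The library totals of the 10 libraries ran from 19431835 to 21011463 reads, with 19844860 and 20048361 for U-138MG, and a count of 0 allows up to 3 reads, or 0.143 to 0.154 CPM, for counting error only. Both libraries of U-138MG agreed within 1.5-fold for 91.6% of its genes at 1 CPM or more, against 85.9% to 89.9% in KNS-42, LN-229 and U-87MG and 70.0% in SNU-1105, whose libraries stood apart from each other. Without the first library of SNU-1105, 89 genes were higher and 67 lower, and without the second 92 and 62. No source used here says how the 2221 genes were chosen. Of these, 99.3% differed at least 2-fold between the mean level of the 5 lines compared here and that of KALS-1, LN-18 and T98G, so shares are of these listed genes and not of the transcriptome. The labels do not say that both libraries of a line had separate cultures as their source. The p-values then measure library-to-library spread only, and this may be technical. Few markers of cell identity were among the listed genes: of 19 astrocyte and oligodendrocyte markers, AQP1, GJA1 and CSPG4 could be read, and GFAP was not analysed here. The 4 immune markers listed summed to 2.22 and 1.65 CPM in U-138MG and to between 0.720 and 26.6 CPM in the other libraries.

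Among the 89 higher genes, 68 encode proteins, 18 are noncoding RNAs other than pseudogenes, and the median fold over the nearest line was 3.67. The rise over the nearest line was at least 4-fold for 40 genes and at least 10-fold for 11, and 17 genes stood under 1 CPM in all 8 other libraries. The 3 genes with the largest fold at 10 CPM or more were MEOX2, FAM180A and HSPB6. Their upstream sequences are shown because these genes separated U-138MG most widely. Each is read from the RefSeq promoter table (GRCh38.p14), 5′ to 3′ on the strand of the gene, without the bases that GENCODE 29 annotates as exon. For HSPB6 GENCODE begins the gene further upstream, so its stretch lies inside the annotated gene but outside its exons. In HSPB6 the capitals mark TATAAA, the letters of a TATA box.

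MEOX2, chr7:15686813-15686933, minus strand: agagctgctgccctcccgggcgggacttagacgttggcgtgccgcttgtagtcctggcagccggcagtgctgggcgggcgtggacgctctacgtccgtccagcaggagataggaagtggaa

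FAM180A, chr7:135748847-135749063, minus strand: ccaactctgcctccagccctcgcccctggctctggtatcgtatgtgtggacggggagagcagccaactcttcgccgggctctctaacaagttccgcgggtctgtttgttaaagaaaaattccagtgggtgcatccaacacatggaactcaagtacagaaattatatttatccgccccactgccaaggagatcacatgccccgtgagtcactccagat

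HSPB6, chr19:35757034-35757279, minus strand: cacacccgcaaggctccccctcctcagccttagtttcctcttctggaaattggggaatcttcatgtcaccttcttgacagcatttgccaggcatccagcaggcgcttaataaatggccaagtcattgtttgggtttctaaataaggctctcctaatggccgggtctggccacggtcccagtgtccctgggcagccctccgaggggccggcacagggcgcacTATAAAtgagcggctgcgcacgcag

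TATAAA was searched on both strands of the 250 bases before each RefSeq start and occurs in 10.7% of 35097 such windows. HSPB6 has 1 match, which begins 29 bases before the start. MEOX2 also has 1, on the other strand and likewise 29 bases before the RefSeq start, in the part not printed because GENCODE places an exon there. FAM180A has no match, which says only that these letters are not in its window.

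MEOX2 (chr7:15611212-15686812, minus strand) encodes a homeobox transcription factor of somites, limb muscle and vascular cells. It stood at 125 and 118 CPM in U-138MG, and at a lowest of 0, a median of 0 and a highest of 0.102 CPM in the other 8 libraries. LN-229 and U-87MG had no read of it, KNS-42 had 1 and SNU-1105 had 3. The ratio of reads to SNU-1105, scaled to the library totals, was 1602 with an exact 95% counting interval of 548 to 7770 (edgeR quasi-likelihood, adjusted p = 8.78e-09). In bulk RNA a larger share of cells that transcribe a gene and more RNA per cell cannot be told apart.

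FAM180A (chr7:135728348-135748846) was at 165 and 161 CPM in U-138MG. In the other libraries it ran from 0 over a median of 0.367 to 4.93 CPM, with SNU-1105 nearest. The log2 fold change was 5.48 ± 0.38 (SE; edgeR adjusted p = 5.01e-07), and no library of another line came near the U-138MG pair. HSPB6 (chr19:35754569-35758079), a small heat shock protein best known from muscle, was at 230 and 279 CPM. Its other values lay between 0.711 and 14.7 CPM with a median of 4.78 (log2 fold change against SNU-1105 4.13 ± 0.21, edgeR adjusted p = 8.78e-09).

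**Figure D1:**
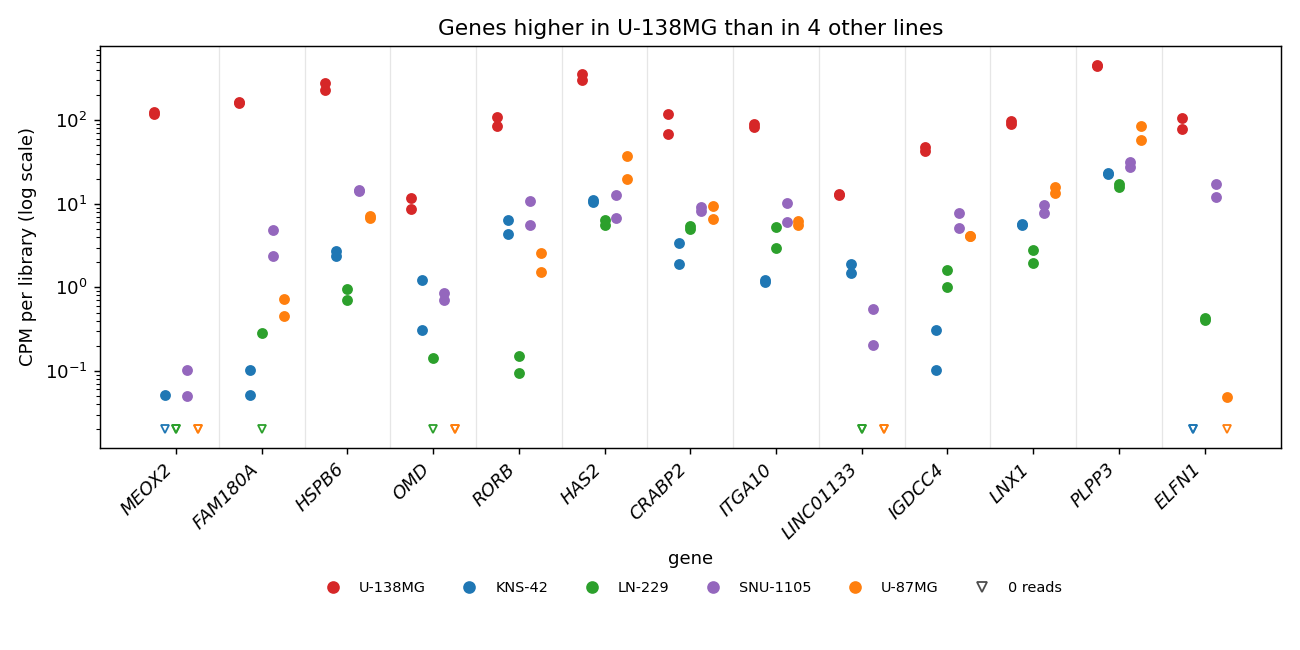
Level of higher genes drawn from the 15 with the largest fold over the nearest line (gene, x axis; CPM on a log scale, y axis). Each point is 1 library, coloured by line, and open triangles at the bottom stand for 0 reads. In every column both red points of U-138MG lie above the 8 others, which is a condition of the call.

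Several of the higher genes encode DNA-binding proteins. RORB (chr9:74497365-74693177), an orphan nuclear receptor known from cortex and retina, was at 109 and 86.4 CPM. Elsewhere it lay between 0.0952 and 10.7 CPM with a median of 3.47, and it was 11.9-fold higher than in SNU-1105 (log2 fold change 3.57 ± 0.32, edgeR adjusted p = 2.13e-06).

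TCF7, a partner of beta-catenin in Wnt signalling, was at 169 and 175 CPM against 37.2 to 87.5 CPM with a median of 44.1 (log2 fold change 1.27 ± 0.21, edgeR adjusted p = 0.00059). Without the second SNU-1105 library its log2 fold change was 0.97, under the threshold of 1. Of 18 tested Wnt, BMP and TGF-beta genes 2 were higher, TCF7 among them, and none was lower, with a median log2 difference of 0.29. Over all tested genes 5.19% were higher and 3.68% lower, so counts this small do not set the list apart.

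VGLL3, a cofactor of TEAD transcription factors, stood at 267 and 178 CPM in U-138MG and from 0.0511 over 35.7 to 85.9 CPM elsewhere (log2 fold change over U-87MG 1.56 ± 0.22, edgeR adjusted p = 0.000146). CREB5, a basic leucine zipper factor, was nearly equal in both libraries, at 92.2 and 91.8 CPM, above a range of 22.3 to 35.3 CPM with a median of 29.8 (1.61 ± 0.24 over LN-229, edgeR adjusted p = 0.000209). These last 2 genes were picked after their values were seen. Of the homeobox genes outside the HOX clusters, 18 were tested, 2 were higher, MEOX2 among them, and none was lower, and the median log2 difference between U-138MG and the mean of the 4 lines was 0.15, against -0.02 over all tested genes. The shares called over all tested genes were 5.19% higher and 3.68% lower, so the count does not set this list apart. Per length, MEOX2 at 51.1 FPKM was lower than PRRX1, another mesenchymal homeobox gene, at 66.8 FPKM. PRRX1 was at 541 and 560 CPM against 113 to 464 CPM and was not called (log2 fold change over SNU-1105 0.61, edgeR adjusted p = 0.109), but it was called higher without the second SNU-1105 library. Of 5 tested HOX genes none was called, and their summed level in the 6 listed was 1.06 and 1.25 CPM in U-138MG against 3.96 to 48.3 CPM.

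Receptor tyrosine kinases contributed 3 higher genes among 7 tested and no lower one, with a median log2 difference of 2.72 against -0.02 over all tested genes. The shares called over all tested genes were 5.19% higher and 3.68% lower. PDGFRA (chr4:54229097-54298247, plus strand), the alpha receptor for platelet-derived growth factor, was at 1168 and 1192 CPM in U-138MG. KNS-42 followed at 324 and 379 CPM, while LN-229, SNU-1105 and U-87MG lay between 9.27 and 20.0 CPM. The log2 fold change was 1.75 ± 0.23 over KNS-42 (edgeR adjusted p = 5.55e-05) and 6.04 to 6.53 over the other lines, so the lines fell into 3 levels with no overlap.

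ALK (chr2:29192774-29921566), a receptor for the ALKAL ligands known from neural crest tumours, stood at 65.3 and 70.6 CPM. The other libraries ran from 0.0511 over a median of 1.02 to 12.1 CPM, highest in U-87MG (log2 fold change 2.64 ± 0.27, edgeR adjusted p = 7.42e-06). EPHA7, an ephrin receptor of axon guidance, was at 52.6 and 47.0 CPM and from 0 over 0.434 to 26.2 CPM elsewhere. Its call against U-87MG (log2 fold change 1.3 ± 0.31, edgeR adjusted p = 0.00765) ended without the first U-138MG library (1.22, adjusted p = 0.0586) or the first U-87MG library (0.93, adjusted p = 0.102).

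The related receptor EPHA5 separated U-138MG from 3 lines but not from SNU-1105: its 2 SNU-1105 libraries, at 155 and 176 CPM, lay above those of U-138MG at 122 and 111 CPM, and the rest ran from 2.18 to 18.2 CPM. KDR, a VEGF receptor encoded next to PDGFRA and KIT on chromosome 4, went the other way. Its reads came to 0 and 0.150 CPM in U-138MG, it was also at most 0.238 CPM in KNS-42 and LN-229, and it reached 79.2 CPM in SNU-1105 and 41.7 CPM in U-87MG on average, so it was not called (edgeR adjusted p = 0.921). Per length, PDGFRA was the highest of these receptors in U-138MG at 124 FPKM, followed by EPHA5 at 11.9, ALK at 9.21 and EPHA7 at 3.03 FPKM.

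Among 7 tested genes of the PDGF pathway, PDGFRA alone was called, and the median log2 difference was -0.70. Beside 5.19% higher and 3.68% lower over all tested genes, this count does not set the list apart. PDGFA, a ligand of PDGFRA, was at 13.9 and 12.8 CPM in U-138MG, above U-87MG (9.66 and 8.08 CPM) and below KNS-42, LN-229 and SNU-1105 (38.8 to 174 CPM). PDGFB, the other ligand listed, had 1 read in each U-138MG library and at most 3.71 CPM elsewhere. SPRY2, an inhibitor induced by receptor kinase signalling, was at 80.3 and 69.3 CPM within a range of 36.0 to 283 CPM, and SPRED2, a related inhibitor, at 157 and 169 CPM, between U-87MG at 135 and 147 CPM and the higher of the LN-229 libraries. FOSL1, an AP-1 factor transcribed after growth factor signalling, was at 244 and 241 CPM within 22.5 to 393 CPM. The U-138MG values of these 3 genes lay inside the range of the other lines. PDGFRB was not analysed here.

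Ligands and co-receptors of other kinases were also higher, at low levels, and were picked after their values were seen. GFRA2, the co-receptor for neurturin, was at 5.59 and 7.88 CPM against 0 to 1.52 CPM with a median of 0.0504 (log2 fold change over LN-229 2.75 ± 0.45, edgeR adjusted p = 0.000553). EPGN and BTC, which encode the epidermal growth factor family ligands epigen and betacellulin, were at 4.99 and 3.14 CPM and at 6.0 and 5.54 CPM, against highest values of 1.12 and 3.29 CPM in the other lines. Both calls were against U-87MG (edgeR adjusted p = 0.00364 and 0.0188). The EPGN call ended without the first U-138MG library (adjusted p = 0.0578) or the second of U-87MG (0.0562), and the BTC call without either U-138MG library (0.131 and 0.0806), the first of U-87MG (0.164) or with all 8 lines in the fit (0.0826).

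Structural matrix genes were the list with the most higher members: 4 of 17 tested, FBN1, NID2, COL5A3 and OGN, with no lower one. Over all tested genes 5.19% were higher and 3.68% lower. The median log2 difference of the 17 was 1.89 against -0.02 over all tested genes, and U-138MG had the highest mean of the 5 lines for 8 of them (47.1%, against 18.1% over all tested genes). Summed over the 18 listed genes, U-138MG reached 21339 and 23168 CPM and the other libraries 2091 to 15768 CPM. Fibronectin made up most of the sum in U-138MG but not in KNS-42, where FN1 stood at 179 and 148 CPM.

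FBN1 (chr15:48408306-48645849), which encodes the microfibril protein fibrillin-1, was at 3643 and 4227 CPM in U-138MG. The other 8 libraries ran from 55.4 over a median of 538 to 1574 CPM, lowest in KNS-42 and highest in SNU-1105 (log2 fold change 1.36 ± 0.16, edgeR adjusted p = 2.64e-05). NID2, a basement membrane linker of laminin and collagen IV, was at 169 and 188 CPM against 7.11 to 78.7 CPM with a median of 34.6 (1.38 ± 0.24 over SNU-1105, edgeR adjusted p = 0.000719). COL5A3, a chain of the fibrillar collagen V, stood at 35.6 and 30.3 CPM against 0.406 to 6.19 CPM with a median of 1.36 (2.44 ± 0.36 over LN-229, edgeR adjusted p = 0.00017).

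OGN and OMD, neighbours on chromosome 9 that encode the small leucine-rich proteoglycans osteoglycin and osteomodulin, were both higher. OMD was at 8.67 and 11.6 CPM, and no other library passed 1.24 CPM (median 0.225; log2 fold change over SNU-1105 3.69 ± 0.49, edgeR adjusted p = 0.000114). OGN was far lower, at 1.26 and 2.00 CPM against 0 to 0.566 CPM with a median of 0.123 (2.06 ± 0.59 over KNS-42, edgeR adjusted p = 0.0238). The OGN call ended without the second U-138MG library (log2 fold change 1.69, adjusted p = 0.212), without the second KNS-42 library (1.51, 0.196), without the low-count filter (0.0512) and with DESeq2 (0.109).

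FN1, the fibronectin gene, was the most abundant structural matrix transcript of those named here per length in U-138MG, at 857 FPKM, ahead of FBN1 at 212 FPKM. Its level was 14292 and 15204 CPM, above all other libraries (148 to 11860 CPM, median 3676), but the gap to SNU-1105 was small and the gene was not called (log2 fold change 0.39 ± 0.15, edgeR adjusted p = 0.0853). TNXB, which encodes the matrix protein tenascin-X, was at 137 and 145 CPM, followed by U-87MG at 81.8 and 96.3 CPM, with 1.10 to 3.76 CPM in the other 3 lines. Its values did not overlap either, and its fold over U-87MG was under 2 (log2 fold change 0.66 ± 0.21, edgeR adjusted p = 0.0405). LTBP1, a binding protein of latent TGF-beta, was at 628 and 646 CPM and overlapped U-87MG at 530 and 682 CPM. The laminin gene LAMA4 overlapped LN-229 (619 and 649 against 832 and 504 CPM).

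Not every matrix gene was high. COL11A1, a fibrillar collagen chain of cartilage, was at 3.12 and 2.74 CPM in U-138MG, near U-87MG at 4.49 and 3.89 CPM, and at 89.0 to 1190 CPM in KNS-42, LN-229 and SNU-1105 (edgeR adjusted p = 0.506 against U-87MG, not called). FREM2, a basement membrane protein of epithelia, had no read in U-138MG and 0.0488 to 390 CPM elsewhere, with U-87MG again at the low end. None of 13 tested matrix proteases and inhibitors was called. With 8.87% of all tested genes called in either direction, that count does not set the list apart.

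**Figure D2:**
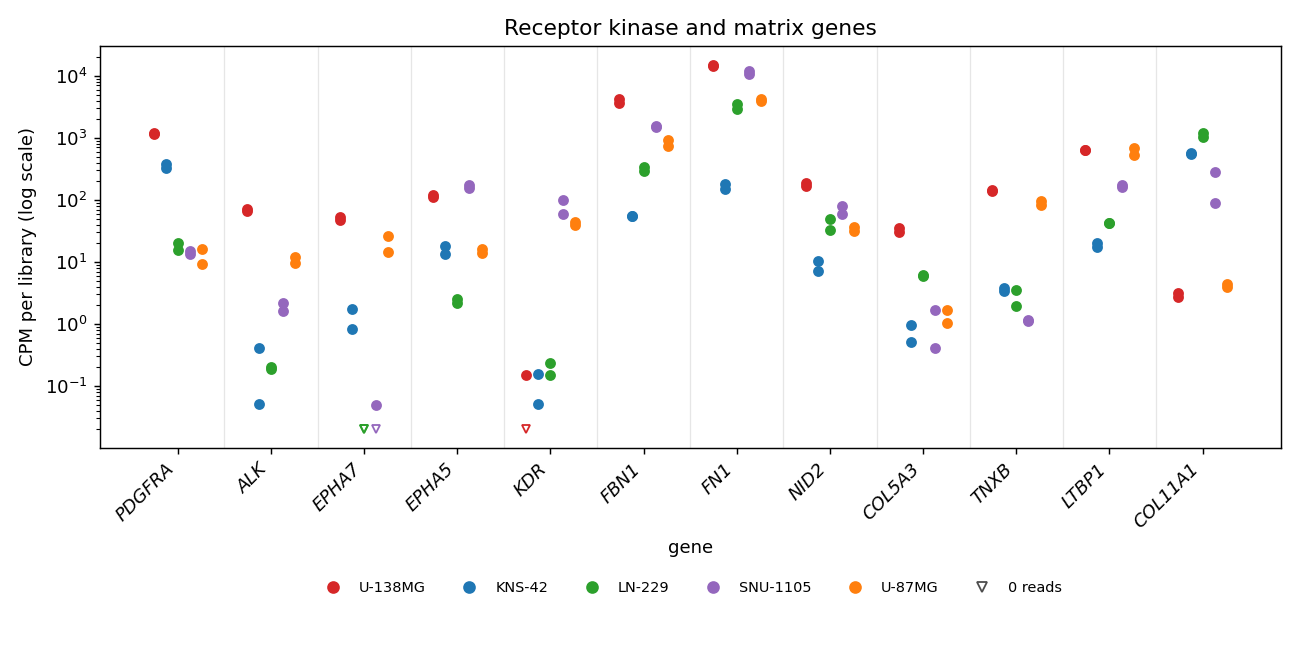
Level of 5 receptor kinase genes and 7 matrix genes (gene, x axis; CPM on a log scale, y axis), each point 1 library coloured by line and open triangles 0 reads. U-138MG is highest for PDGFRA, ALK, EPHA7, FBN1, FN1, NID2, COL5A3 and TNXB, and among the lowest for KDR and COL11A1.

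HAS2 (chr8:121612116-121641390), a hyaluronan synthase of the plasma membrane, was at 362 and 301 CPM in U-138MG. The others ran from 5.57 over a median of 10.8 to 37.0 CPM, highest in U-87MG, a difference of 11.6-fold between means (log2 fold change 3.54 ± 0.31, edgeR adjusted p = 1.9e-06). ITGA10, the collagen-binding integrin alpha 10 chain, stood at 83.3 and 91.1 CPM against 1.18 to 10.2 CPM with a median of 5.41 (3.43 ± 0.29 over SNU-1105, edgeR adjusted p = 1.52e-06). COL22A1, a collagen of tissue junctions picked after its values were seen, was at 63.4 and 72.7 CPM, with no read in KNS-42 and 23.6 and 29.6 CPM in U-87MG (1.36 ± 0.23, edgeR adjusted p = 0.000666).

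Of 14 tested integrins and cadherins, ITGA10 and CDH18 were higher and ITGB3 lower, with a median log2 difference of -0.20. Over all tested genes 5.19% were higher and 3.68% lower, so counts this small do not set the list apart. CDH18, a type II cadherin of the nervous system, was at 27.8 and 28.8 CPM against 0.10 to 4.78 CPM with a median of 1.19 (2.58 ± 0.26 over U-87MG, edgeR adjusted p = 6.56e-06). ITGB3 (chr17:47253846-47311816), the beta chain that pairs with integrin alpha V, was at 1.31 and 1.60 CPM in U-138MG. It ran from 14.2 over a median of 102 to 308 CPM in the other libraries, with KNS-42 and SNU-1105 at the low end and LN-229 and U-87MG at 179 CPM or more. The log2 fold change against KNS-42 was -3.37 ± 0.31 (edgeR adjusted p = 2.3e-06).

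Other surface and adhesion genes were picked after their values were seen. CLMP, an immunoglobulin superfamily adhesion protein, was at 976 and 832 CPM against 20.0 to 309 CPM (log2 fold change over U-87MG 1.58 ± 0.19, edgeR adjusted p = 2.53e-05). ANTXR2, a collagen-binding anthrax toxin receptor, was at 579 and 509 CPM against 23.3 to 187 CPM (1.62 ± 0.23, edgeR adjusted p = 0.000146). SGCD, the delta-sarcoglycan of the muscle membrane complex, was at 120 and 127 CPM against 6.0 to 31.1 CPM (2.15 ± 0.22 over LN-229, edgeR adjusted p = 7.96e-06), and no library of KALS-1, LN-18 or T98G passed the 3-read floor for it. Both pericyte markers listed, ABCC9 and KCNJ8, were not particular to U-138MG: they summed to 87.5 and 65.0 CPM in U-138MG and reached 87.1 CPM in U-87MG, and neither was called. The fibroblast markers listed were PDGFRA, described above, and FAP, at 69.1 and 66.9 CPM within a range of 2.04 to 96.2 CPM and not called. DCN, LUM and the collagen I genes were not analysed here.

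CRABP2 and DHRS3, which both act on retinoids, were called in opposite directions. CRABP2 (chr1:156699606-156705816), which carries retinoic acid to its nuclear receptor, was at 68.1 and 120 CPM in U-138MG. The other libraries lay between 1.9 and 9.47 CPM with a median of 6.03 (log2 fold change over SNU-1105 3.43 ± 0.31, edgeR adjusted p = 2.4e-06). DHRS3 (chr1:12567910-12617731), an enzyme that reduces retinal and so limits retinoic acid, was at 0.151 and 0.599 CPM, while the others ran from 9.50 over a median of 29.3 to 261 CPM, highest in LN-229 (log2 fold change against KNS-42 -5.12 ± 0.43, edgeR adjusted p = 1.57e-06). For both genes the U-138MG pair stood apart from every other library, as each call requires.

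PLPP3 (chr1:56494747-56645301), a surface phosphatase that dephosphorylates lysophosphatidic acid and sphingosine-1-phosphate, was at 444 and 464 CPM. The other 8 libraries ran from 15.8 over a median of 25.3 to 84.4 CPM, highest in U-87MG (log2 fold change 2.68 ± 0.20, edgeR adjusted p = 7.77e-07). It was the only called member of 14 tested prostanoid and lipid mediator genes, whose median log2 difference was 0.03. This is near the share of all tested genes called in either direction, 8.87%. PTGIS, the prostacyclin synthase, was at 43.2 and 53.3 CPM, next to 26.2 and 30.8 CPM in SNU-1105 and at most 0.154 CPM in the other 3 lines. Its fold over SNU-1105 stayed under 2 (log2 fold change 0.76 ± 0.23, edgeR adjusted p = 0.0319).

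The lower gene with the largest fold among those at 5 CPM or more in every other line was PCYT1B (chrX:24558087-24672677), an enzyme of phosphatidylcholine synthesis. It had 4 reads in all, 0.101 and 0.0998 CPM, in U-138MG. The level lay between 4.64 and 36.0 CPM with a median of 11.3 in the others (log2 fold change against LN-229 -5.61 ± 0.41, edgeR adjusted p = 6.62e-07). CERT1 (chr5:75356345-75512138), which carries ceramide from the endoplasmic reticulum to the Golgi, was at 16.2 and 14.1 CPM against 73.2 to 255 CPM with a median of 143 (-2.53 ± 0.21 against U-87MG, edgeR adjusted p = 1.52e-06). As each call requires, both genes were below every library of the 4 lines.

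The remaining higher genes with the largest folds have varied roles. ELFN1, a synaptic leucine-rich repeat protein, was at 79.3 and 107 CPM, SNU-1105 at 17.5 and 12.2 CPM, and the other 3 lines at most at 0.428 CPM (2.65 ± 0.26 over SNU-1105, edgeR adjusted p = 6.56e-06).

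IGDCC4, an immunoglobulin superfamily membrane protein, was at 42.6 and 48.5 CPM against 0.103 to 7.71 CPM with a median of 2.88 (log2 fold change over SNU-1105 2.82 ± 0.27, edgeR adjusted p = 3.79e-06). LNX1, a ubiquitin ligase that targets the Notch regulator Numb, was at 89.4 and 97.3 CPM against 1.98 to 15.8 CPM with a median of 6.78 (2.68 ± 0.22 over U-87MG, edgeR adjusted p = 1.31e-06). The long noncoding RNA LINC01133 was at 13.1 and 12.7 CPM, with 1.9 and 1.48 CPM in KNS-42, at most 0.550 CPM in SNU-1105 and no read in LN-229 or U-87MG (2.92 ± 0.34 over KNS-42, edgeR adjusted p = 4.8e-05). For all 3 genes the U-138MG pair was the highest of the 10 libraries, as each call requires.

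Among the channels, KCNQ5 and SCN2A were higher and GABRQ was lower among 29 tested ion channels and neurotransmitter receptors, whose median log2 difference was -0.54. These counts are near the shares over all tested genes, 5.19% higher and 3.68% lower. KCNQ5, a potassium channel of the M current, was at 63.4 and 54.3 CPM against 3.42 to 11.9 CPM with a median of 7.81 (log2 fold change over SNU-1105 2.51 ± 0.28, edgeR adjusted p = 1.35e-05). SCN2A, a neuronal sodium channel, was at 20.8 and 22.1 CPM against 4.14 to 9.31 CPM with a median of 5.85 (1.54 ± 0.31 over LN-229, edgeR adjusted p = 0.00215). GABRQ, the theta subunit of the GABA-A receptor, had 0.202 and 0.150 CPM in U-138MG. It was low in SNU-1105 too, at 0.711 and 0.951 CPM, and ran up to 400 CPM in KNS-42 (-2.21 ± 0.44 against SNU-1105, edgeR adjusted p = 0.00225).

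A kinase and an RNA regulator of high level were picked after their values were seen. MAP4K4, a kinase upstream of JNK, was at 1445 and 1278 CPM, while the other 8 libraries fell in a narrow band from 370 to 575 CPM (log2 fold change over SNU-1105 1.25 ± 0.15, edgeR adjusted p = 3.2e-05). ZFP36L2, which binds AU-rich elements and promotes mRNA decay, was at 335 and 333 CPM against 36.3 to 117 CPM (1.62 ± 0.18 over LN-229, edgeR adjusted p = 1.58e-05).

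Of the 63 lower genes, 59 encode proteins and the median fold below the nearest line was 4.11. The gap was at least 4-fold for 32 genes and at least 10-fold for 14, and 32 genes were under 1 CPM in U-138MG. GRIP1, a scaffold of glutamate receptors, and ARL14EPL had no read in either U-138MG library. With 3 reads over both libraries as the floor, they were at least 4.69-fold lower than in SNU-1105 and at least 4.59-fold lower than in U-87MG (edgeR adjusted p = 0.00682 and 0.0143). The GRIP1 call ended without the second SNU-1105 library (adjusted p = 0.0527), and that of ARL14EPL without either U-138MG library (0.0801 and 0.0814) or the first of U-87MG (0.0917).

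A few neuronal and axon guidance genes were lower, while other neural genes, such as CDH18 and SCN2A above, were higher. GAP43 (chr3:115623324-115721490), a protein of growth cones and 1 of 2 neuron markers listed, had 0.504 and 0.299 CPM in U-138MG. The other libraries ran from 4.69 over a median of 13.9 to 244 CPM, highest in KNS-42 (log2 fold change against U-87MG -3.94 ± 0.39, edgeR adjusted p = 4.29e-06). SYT1, a synaptic vesicle calcium sensor and the second neuron marker, was at 17.2 and 12.7 CPM, above SNU-1105 at 2.29 and 2.30 CPM and below the rest, and was not called.

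NRP2 (chr2:205681990-205798133), a receptor for class 3 semaphorins and VEGF, was at 41.8 and 40.9 CPM. All other libraries were between 220 and 862 CPM with a median of 399 (log2 fold change against LN-229 -2.62 ± 0.20, edgeR adjusted p = 7.77e-07). Its paralog NRP1 was at 423 and 473 CPM within a range of 221 to 839 CPM and was not called, and the difference between the 2 neuropilins was not tested. EFNB2, a transmembrane ligand of Eph receptors, was at 23.4 and 22.9 CPM against 50.1 to 352 CPM with a median of 129 (-1.31 ± 0.19 against LN-229, edgeR adjusted p = 0.000146). Among 17 tested axon guidance genes EPHA7 was higher, NRP2 and EFNB2 were lower, and the median log2 difference was 0.31. U-138MG had the highest mean of the 5 lines for 4 of the 17 and the lowest for 2. Over all tested genes 5.19% were called higher and 3.68% lower, so counts this small do not set the list apart.

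Further neural genes were picked after their values were seen. CHL1, an adhesion protein of the L1 family, had 2 reads in U-138MG, 0 and 0.0998 CPM, against 1.37 to 190 CPM with a median of 32.0. The ratio of U-87MG, the nearest line, to U-138MG was 29, with an exact 95% counting interval of 7.69 to 245 (edgeR adjusted p = 0.00351). FEZ1, a kinesin adaptor of axonal transport, was at 1.56 and 1.80 CPM against 4.05 to 115 CPM (log2 fold change against U-87MG -1.51 ± 0.28, edgeR adjusted p = 0.00109). The 2 sialyltransferases called went in opposite directions. ST8SIA2, which adds polysialic acid to NCAM, was at 16.3 and 14.3 CPM against 0 to 7.06 CPM (1.40 ± 0.28 over SNU-1105, edgeR adjusted p = 0.00284), and ST8SIA5, which acts on gangliosides, at 0.252 and 0.20 CPM against 2.74 to 418 CPM (-3.91 ± 0.61 against U-87MG, edgeR adjusted p = 0.000302).

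Neural progenitor and proneural genes had the lowest median log2 difference of the 18 lists, -4.20 over 7 tested genes, but none was called. Since 8.87% of all tested genes were called in either direction, a list of 7 may hold none. U-87MG shared the low levels of 3 of these genes. SOX2, a stem cell factor, was at 0.454 and 0.20 CPM in U-138MG, 0.195 and 0.0499 CPM in U-87MG and 82.0 to 818 CPM in the other 3 lines (edgeR adjusted p = 0.242). FABP7, a fatty acid carrier of radial glia, had no read in U-138MG, 0.146 and 0.449 CPM in U-87MG and 12 to 107 CPM in the rest (edgeR adjusted p = 0.113), and with DESeq2 or limma it was called lower. PTPRZ1, a receptor phosphatase of glial progenitors, was at 0.302 and 0.549 CPM against 1.12 and 0.898 CPM in U-87MG and 6.15 to 416 CPM in the rest (adjusted p = 0.356). These values put U-138MG and U-87MG together at the low end for the 3 genes. Summed over all 7 listed genes, U-138MG was at 24.8 and 26.0 CPM, within a range of 18.4 to 1486 CPM in the other libraries. Most of the U-138MG sum came from members of the list whose values are not given here.

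LRP1B (chr2:140231423-142131701), a large endocytic receptor of the LDL receptor family, was at 4.79 and 2.99 CPM against 16 to 58.6 CPM with a median of 22.5 (log2 fold change against LN-229 -2.15 ± 0.35, edgeR adjusted p = 0.000433). LONRF2, a RING finger ubiquitin ligase, was at 0.756 and 0.299 CPM against 11.5 to 249 CPM with a median of 59.1 (-4.75 ± 0.37 against U-87MG, edgeR adjusted p = 7.77e-07). ARL10, an ARF-like small GTPase, was at 3.38 and 3.19 CPM against 20.5 to 51.0 CPM with a median of 33.9 (-3.05 ± 0.27 against SNU-1105, edgeR adjusted p = 1.9e-06). As each call requires, none of these 3 genes overlapped between U-138MG and the other lines.

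**Figure D3:**
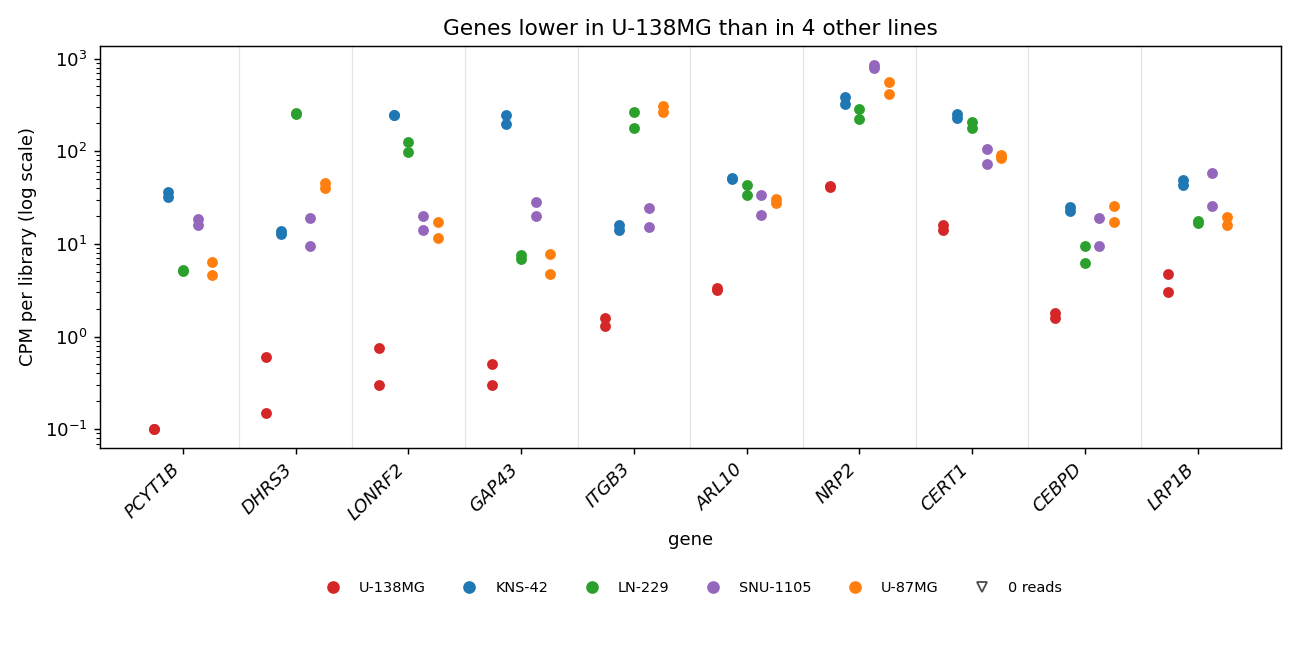
Level of the 10 lower genes with the largest fold below the nearest line among those at 5 CPM or more in every other line (gene, x axis; CPM on a log scale, y axis), each point 1 library coloured by line. By the condition of the call, both red points of U-138MG lie below the 8 others in every column, from about 0.1 CPM for PCYT1B to 41.8 CPM for NRP2.

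Among factors of inflammation and signalling, CEBPD (chr8:47736909-47739086), a basic leucine zipper factor of the acute phase response, was at 1.81 and 1.60 CPM. The other lines lay between 6.30 and 25.9 CPM with a median of 18.3 (log2 fold change against LN-229 -2.22 ± 0.37, edgeR adjusted p = 0.000553). LIF, a cytokine of the interleukin-6 family, was at 9.22 and 6.04 CPM against 22.4 to 484 CPM with a median of 173 (-1.95 ± 0.32 against SNU-1105, edgeR adjusted p = 0.000519). It was the only called gene of 12 tested cytokines, chemokines and TNF family genes (median log2 difference -1.61). That count is near the share of all tested genes called in either direction, 8.87%. GLI2, the transcription factor at the end of hedgehog signalling, was at 3.63 and 4.14 CPM against 11.1 to 95.5 CPM (-1.62 ± 0.20 against SNU-1105, edgeR adjusted p = 4.44e-05). GLI2 was picked after its values were seen.

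KRT8, a keratin of simple epithelia, was at 0.605 and 0.499 CPM in U-138MG and at 3.29 to 18.3 CPM with a median of 5.97 in the other libraries (log2 fold change against U-87MG -2.65 ± 0.33, edgeR adjusted p = 4.28e-05). Its partner KRT18 was at 0.252 and 0.299 CPM, but U-87MG was as low, at 0.390 and 0.299 CPM, and it was not called (edgeR adjusted p = 0.831). Another keratin, KRT14, picked after its values were seen, was higher, at 17.1 and 18.7 CPM against 0.0488 to 8.38 CPM (log2 fold change over LN-229 1.64 ± 0.42, edgeR adjusted p = 0.0107). The KRT14 call ended with limma (adjusted p = 0.0586), without the second U-138MG library (log2 fold change 1.58) and without the first LN-229 library (1.10). Keratin genes have near-identical copies and the annotated KRT8 and KRT18 genes overlap, so these counts are uncertain. The 4 simple epithelium markers listed summed to 0.907 and 0.798 CPM in U-138MG and 3.59 to 70.0 CPM elsewhere.

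FOXF1, a forkhead factor of mesoderm, had 1 read in each U-138MG library. LN-229 was nearest at 0.619 and 0.558 CPM, and the other 3 lines lay between 5.45 and 19.4 CPM. The ratio of LN-229 to U-138MG was 11.8 with an exact 95% counting interval of 2.92 to 103 (edgeR adjusted p = 0.0368). The call ended without any 1 of the libraries of U-138MG, LN-229 or U-87MG (log2 fold changes of -3.47 to -3.32, adjusted p of 0.0573 to 0.159) and without the low-count filter (0.0876). Its levels were far higher in LN-18 and T98G, at 365 and 165 CPM on average.

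TXNRD1, GCLC and TALDO1, which act in thiol and NADPH metabolism, were lower and were picked after their values were seen, as was GSTM1, a glutathione transferase that was higher. The upstream sequence of TXNRD1, which encodes thioredoxin reductase, is shown because it holds the letters TGACNNNGC, the core of the antioxidant response element. It is the 250 bases before the RefSeq start on the plus strand (GRCh38.p14), with the match in capitals.

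TXNRD1, chr12:104215529-104215778, plus strand: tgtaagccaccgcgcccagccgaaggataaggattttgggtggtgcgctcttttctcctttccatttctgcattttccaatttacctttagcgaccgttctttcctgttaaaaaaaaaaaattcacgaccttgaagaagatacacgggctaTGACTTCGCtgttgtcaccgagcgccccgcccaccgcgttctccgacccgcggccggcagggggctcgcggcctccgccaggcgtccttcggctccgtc

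The match begins 99 bases before the start, and TGACNNNGC occurs on either strand in 10.9% of the 35097 windows of this length. A match is a description and not evidence of binding. TXNRD1 was shown for its match, and whether GCLC, TALDO1 or GSTM1 hold these letters is not reported here. So the match says nothing about these genes as a group. TXNRD1 stood at 158 and 159 CPM in U-138MG, and the other 8 libraries ran from 334 over a median of 457 to 694 CPM (log2 fold change against LN-229 -1.37 ± 0.26, edgeR adjusted p = 0.00146). It was at 1241, 1637 and 2922 CPM on average in KALS-1, LN-18 and T98G, so U-138MG had the lowest mean of the 8 lines of the table. GCLC, the catalytic subunit of glutathione synthesis, was at 14.8 and 11.0 CPM against 20.1 to 70.9 CPM (-1.07 ± 0.25 against SNU-1105, edgeR adjusted p = 0.00542). TALDO1, a pentose phosphate pathway enzyme, was at 60.1 and 62.1 CPM against 129 to 199 CPM (-1.13 ± 0.19 against KNS-42, edgeR adjusted p = 0.000519). Both sat near the fold threshold: GCLC was not called without the second U-138MG library (-0.88) or the first SNU-1105 library (-0.64), nor TALDO1 with TMM scaling (-0.98). GSTM1 was at 31.6 and 38.3 CPM against 0 to 16.9 CPM with a median of 6.54 (1.07 ± 0.22 over SNU-1105, edgeR adjusted p = 0.00314), and near-identical copies make its count uncertain. It was not called with TMM (0.82) or RLE scaling (0.91) or without the second U-138MG library (0.93).

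Genes of MHC class II, which present peptides to T helper cells, were intermediate in U-138MG. CIITA, their master regulator, was at 29.7 and 21.9 CPM, above SNU-1105 (4.06 and 2.45 CPM) and below KNS-42 and LN-229 (73.8 to 134 CPM), and HLA-DRA was at 34.0 and 24.1 CPM between SNU-1105 (at most 0.751 CPM) and U-87MG (130 and 143 CPM). HLA-DPA1 had the same order, with SNU-1105 lowest at 1.63 and 0.901 CPM, U-138MG at 36.1 and 32.5 CPM and 97.7 to 424 CPM in the rest. CD74, the invariant chain, was by contrast below every other library, at 1.66 and 1.3 CPM against 2.18 to 2265 CPM, with a log2 fold change of -0.92 ± 0.27 against SNU-1105 that missed the fold threshold (edgeR adjusted p = 0.0252). With TMM or RLE scaling, or without the first SNU-1105 library, CD74 was called lower. Near-identical HLA genes can share reads. None of 14 tested antigen presentation genes was called (median log2 difference -2.06), and none of 27 tested interferon response genes (-0.09). With 5.19% of all tested genes called higher and 3.68% lower, these counts do not set either list apart.

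The remaining lists had few or no called genes. Neither of 2 tested matrix crosslinking and assembly enzymes was called: LOXL3 was at 160 and 185 CPM, between U-87MG (at most 40.7 CPM) and SNU-1105 (at least 235 CPM). None of 6 tested mesenchymal glioblastoma genes was called (median log2 difference 0.62), and FOXF1 was the only called gene of 12 other mesenchymal and neural crest transcription factors (-1.03). As 5.19% of all tested genes were called higher and 3.68% lower, such counts do not set these lists apart. The median of the matrix proteases was 0.23 and that of the HOX genes -1.17. The gene sets are small samples of longer lists, since between 2 and 35 members of each stood among the 2221 genes.

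Some genes called in the same direction lay near each other, by GENCODE 29 positions. LNX1 and PDGFRA lie 528 kb apart on chromosome 4, and OGN and OMD 9.55 kb apart on chromosome 9. HAS2 and the noncoding RNAs SMILR and LINC01151 lie in a row on chromosome 8, with gaps of 773 and 242 kb, at 3.23 and 3.14 CPM for SMILR and 5.04 and 3.59 CPM for LINC01151 against at most 0.651 and 0.661 CPM elsewhere. EPGN and BTC lie 429 kb apart on chromosome 4, and GFM2 and CERT1, both lower, 589 kb apart on chromosome 5.

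Chromosome 4 held 11 higher genes among 102 tested (10.8%) and no lower one, and chromosome 14 held 5 higher among 41 (12.2%). Chromosome 5 held 11 lower genes among 95 (11.6%) and 5 higher, with a median log2 difference of -0.83. The shares over all tested genes were 5.19% higher and 3.68% lower. On chromosome 5 the 14 tested genes between ERBIN and SSBP2 (chr5:65926475-81751797) all had a negative log2 difference. Their median was -1.50, against -0.02 over all tested genes. U-138MG had the lowest mean of the 5 lines for 10 of them, against 17.4% over all tested genes. This stretch and its ends were picked after its values were seen, so these counts describe the stretch and do not test it. Its 5 lower genes were ERBIN, TMEM171, GFM2, CERT1 and RASGRF2.

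ERBIN, a scaffold protein that binds ERBB2, was at 62.9 and 53.8 CPM against a narrow band of 125 to 161 CPM (log2 fold change against LN-229 -1.17 ± 0.18, edgeR adjusted p = 0.000213). RASGRF2, an exchange factor for Ras and Rac, was at 0.403 and 0.249 CPM against 1.65 to 5.19 CPM (-2.37 ± 0.45 against SNU-1105, edgeR adjusted p = 0.00135). GFM2, a mitochondrial translation factor, was at 15.9 and 11.6 CPM against 27.4 to 58.4 CPM (-1.08 ± 0.20, edgeR adjusted p = 0.00139), and TMEM171 had 1 read in U-138MG. Without the second U-138MG library GFM2 was at -0.87 and TMEM171 at an adjusted p of 0.0768, and without the first SNU-1105 library GFM2 was at -0.99, so neither was then called. DNA copy number was not measured here.

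**Figure D4:**
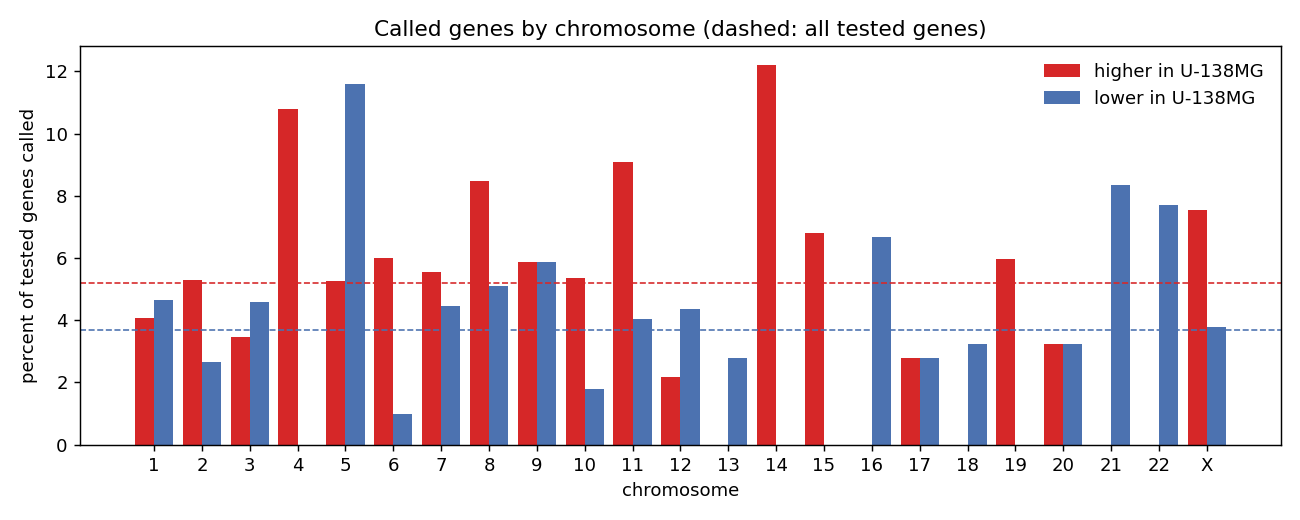
Percent of tested genes called higher (red) and lower (blue) in U-138MG on each autosome and X (x axis), with dashed lines at the shares over all tested genes, 5.19% and 3.68%. Chromosomes 4 and 14 stand highest for higher genes and chromosome 5 for lower genes, and the bars rest on 12 to 189 tested genes each.

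Line by line, at an adjusted p under 0.05 and a log2 fold change of at least 1 within each contrast (edgeR), U-138MG had 422 higher (24.6%) and 421 lower genes (24.6%) against U-87MG. Against KNS-42 the counts were 497 (29%) and 572 (33.4%), against LN-229 509 (29.7%) and 472 (27.5%), and against SNU-1105 478 (27.9%) and 410 (23.9%). The 4 comparisons share the U-138MG libraries, and whether their counts differ was not tested. U-87MG was the nearest line for 34 of the 89 higher and 28 of the 63 lower genes, SNU-1105 for 28 and 14, LN-229 for 16 and 12 and KNS-42 for 11 and 9.

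In the lines outside the comparison, both U-138MG libraries also lay above all 6 libraries of KALS-1, LN-18 and T98G for 85 of the 89 higher genes (95.5%, against 51.6% of all tested genes). For the lower genes the matching count, below all 6, was 33 of 63 (52.4%, against 18.7%). These shares are no independent check, because both sets of genes were selected. Of the listed genes 99.3% differed at least 2-fold between the 5 lines and the 3 left out, and 59.4% of those were higher in the 5. Called genes were also chosen for extreme U-138MG levels. For 24 of the 63 lower genes at least 1 of KALS-1, LN-18 and T98G had a mean below U-138MG, such as NRP2 with 5.77 CPM in LN-18 and EFNB2 with 0.491 CPM in T98G. The 4 higher genes for which one of these lines had a mean above U-138MG included MASP1, DHRS2 and SNCG. MASP1, a complement lectin pathway protease, was at 0.705 and 1.25 CPM in U-138MG and 39.0 CPM on average in T98G. DHRS2, a mitochondrial reductase, was at 2.57 and 3.79 CPM, with 26.0 CPM in KALS-1, and SNCG, gamma-synuclein, at 0.907 and 0.698 CPM, with 4.28 CPM in LN-18. Leaving out 1 library ended the calls of MASP1 (the second of U-138MG or U-87MG or the first of SNU-1105, adjusted p of 0.0535 to 0.145; also DESeq2, 0.132), of DHRS2 (the second of U-138MG or U-87MG or the first of KNS-42, 0.0555 to 0.0652) and of SNCG (any but those of SNU-1105, 0.0605 to 0.223; also DESeq2, 0.214).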

How the data were processed

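Poly(A) RNA of untreated cell lines was sequenced as strand-specific libraries, per the labels' protocols. The authors deposited raw read counts, FPKM and gene lengths; the build was hg38/GRCh38, and the tools named in the submitters' processing notes, without their roles, are HISAT2 2.2.1, StringTie 1.3.3, HTSeq 0.6.0, FastQC 0.10.1 and cutadapt 1.9.1. The sources used here do not give the strand setting of the counting, so antisense and overlapping genes are uncertain. Library totals were worked back from reads, length and the deposited FPKM over genes of at least 20 FPKM and 200 reads. They agreed within 0.0488% and returned at least 99.9% of FPKM values within 0.01. The listed genes held 7.17% to 10.2% of these totals, and names matched for 2220 of 2221 genes.

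Counts of the 10 libraries were fitted with edgeR 4.0.16 (quasi-likelihood, R 4.3.3), 1 coefficient per line, the totals as library sizes and no further scaling, because nearly all listed genes differ between the lines of the table. The low-count filter (filterByExpr by line) left out 507 genes. Standard errors were worked back from the F statistic. Alternatives were TMM and RLE factors, DESeq2 1.42.0, limma 3.58.1 (prior count 2), other filters, a replicate block, and leaving out libraries or lines. The scripts were tested on simulated data.

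The text names the 15 higher genes of at least 10 CPM and the 10 lower genes whose lowest other line has at least 5 CPM with the largest fold to the nearest line, the called members of 18 gene lists, and 17 genes listed by name. Some genes that meet this rule are not reported here. Genes outside it were chosen after their values were seen, and are marked so, stand for the other end of a list or pair, or are neighbours of called genes. The members and lists were chosen with earlier results of these data known.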

Additional observations from a re-analysis of the deposited data

How the results depend on the processing

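TMM scaling gave 89 higher and 60 lower genes (85 of the 89 shared), RLE factors 90 and 66, DESeq2 76 and 63, limma 81 and 71, no low-count filter 85 and 57, a filter at 5 CPM 64 and 57, all 8 lines in the fit 86 and 61, and no fold threshold 132 and 84. Leaving out 1 library at a time gave 73 to 92 higher and 51 to 67 lower genes. Counts of higher and lower genes moved most with how many lines had to be passed, which that setting fixes: 212 and 151 against the mean of the 4 lines, and 120 to 183 higher and 83 to 141 lower when 1 line was left out, over 1.5 times the count without SNU-1105 or U-87MG and, for lower genes, without LN-229 (100). Replicate numbers did not pair the libraries (correlation of deviations between lines -0.119 to 0.094), and a replicate block gave 89 higher and 60 lower and, of the called genes named, ended the call of SNCG only (adjusted p = 0.051, edgeR). Against the fit on library totals, TMM moved the median log2 fold change by 0.15 against KNS-42 and by -0.25 against SNU-1105, and RLE by 0.12 and -0.16. No direction reversed. Of 81 called genes named, 59 kept the call under each alternative that tested them and 22 lost it at least once. Genes near 1 CPM are limited by depth, and 2 libraries per line limit every estimate of spread.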
